A study of Homo sapiens with 6 samples.

Results

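The CEP genes are the protein-coding genes whose symbol begins with CEP followed by a number, a name given to proteins found at the centrosome. Of 38126 Ensembl gene IDs in the deposited files, 39 met this rule once IDs were matched to symbols, 38 by a gene name table and CEP15 through its older symbol C3orf14. They lie on 18 chromosomes. The rule uses names and no values, though the family was picked with earlier results of these data known. The libraries come from HK-2 cells, a human line made from proximal tubule epithelium of the kidney and immortalised, which was grown in serum-free keratinocyte medium with EGF and pituitary extract. There were 3 RNA-seq libraries of untreated cells and 3 of cells treated for 24 h with phosphoramidon, which blocks zinc-dependent peptidases, neprilysin among them. The labels give no dose and do not say whether replicates were grown apart. The p-values therefore cover the spread among these 6 libraries alone, part or all of which may be technical. Titles of the untreated samples contain the unexplained letters CSE. The comparison asks which transcripts differ in level between treated and untreated cells.

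The centrosome is a pair of centrioles, short barrels of microtubules, in a matrix from which the cell's microtubules grow. Each centriole builds a daughter beside it in every cell cycle, under the control of the kinase PLK4. In mitosis the pairs sit at the spindle poles, and in resting cells the older centriole docks at the membrane by its distal appendages and becomes the base of the primary cilium, the flow and signal sensor of kidney tubule cells.

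Values are FPKM, fragments per kilobase of exon, corrected for the total assigned in the library. Assigned totals recovered from the values were 18690099 to 24919568 fragments, and the CEP genes took 0.135%, 0.15% and 0.145% of them in the untreated libraries and 0.162%, 0.173% and 0.179% in the treated ones, each in the order of replicates 1, 2 and 3. Of the proximal tubule markers looked for, PAX8 was well above 10 FPKM, while LRP2, CUBN, SLC22A6, SLC22A8, ANPEP, PAX2 and HNF4A were below 0.1 FPKM in every library. All 39 CEP genes passed the filter on low values, the fewest fragments in any library being 29, for CEP295NL. Their mean levels ran from 0.592 FPKM for CEP126 to 38.5 FPKM for CEP55, with a median of 3.04 FPKM beside 3.43 FPKM for all 16168 genes tested. Summed over the 39 genes, the level was 179, 197.6 and 194.6 FPKM in untreated cells and 232.5, 246.3 and 249.9 FPKM in treated cells, and the 4 most abundant genes made up 41.5% to 43.3% of it.

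The stretches of promoter below lie just before the RefSeq start of 5 CEP genes that rose, the 150 bases up to the start (GRCh38.p14). They were picked from genes that passed the test, because they hold short motifs known from genes of the cell cycle or of cilia. Capitals mark the motifs on either strand: the cell cycle homology region, CHR (TTTGAA or TTCGAA), bound by the DREAM and MuvB complexes; the CCAAT box, bound by NF-Y; the E2F core (GCGGGAA or GCGCGAA); and the RFX half-site (GTTGCC), part of the sites of the RFX factors of ciliary genes. The strand and place are chr10:93496462-93496611 (+) for CEP55, with a CHR and a CCAAT box; chr1:26234050-26234199 (+) for CEP85, with 2 CCAAT boxes around an E2F core; chr18:12991212-12991361 (+) for CEP192, with an E2F core and a CCAAT box; chr11:93661532-93661681 (+) for CEP295, with an E2F core, a CCAAT box and a CHR in that order; and chr17:66192134-66192283 (-) for CEP112, with an RFX half-site. Of these genes CEP85 had 2 start windows and CEP112 had 3, and the outermost start was used. Another window of CEP112 held a CHR and an E2F core. A match is a run of letters and not a measured binding site.
CEP55: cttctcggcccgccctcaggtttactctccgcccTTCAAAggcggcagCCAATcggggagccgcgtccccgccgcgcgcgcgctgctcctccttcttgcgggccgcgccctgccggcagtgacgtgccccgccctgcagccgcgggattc
CEP85: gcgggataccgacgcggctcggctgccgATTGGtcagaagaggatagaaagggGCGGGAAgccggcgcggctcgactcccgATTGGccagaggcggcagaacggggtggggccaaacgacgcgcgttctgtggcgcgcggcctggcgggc
CEP192: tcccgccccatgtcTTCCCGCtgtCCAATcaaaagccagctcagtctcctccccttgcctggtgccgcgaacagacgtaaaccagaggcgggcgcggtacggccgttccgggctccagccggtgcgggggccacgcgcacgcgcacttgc
CEP295: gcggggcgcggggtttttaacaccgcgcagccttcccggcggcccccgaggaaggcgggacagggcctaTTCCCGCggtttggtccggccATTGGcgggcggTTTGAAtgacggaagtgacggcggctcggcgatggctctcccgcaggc
CEP112: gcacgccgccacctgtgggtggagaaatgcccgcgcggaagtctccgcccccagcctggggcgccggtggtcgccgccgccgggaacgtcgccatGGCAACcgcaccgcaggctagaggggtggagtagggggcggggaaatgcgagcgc

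RefSeq start windows of 300 bases (250 before to 50 after a start) were matched for 33 of the 39 genes, 42 windows in all; CEP15, CEP78, CEP170B, CEP250 and CEP295NL were among those not matched. The CHR was in 15 of the 42 windows (35.7%), beside 16.4% of all 35116 windows and 11.8% of the 16573 windows of tested genes. The E2F core was in 13 (31.0%), beside 8.54% of all windows and 12.5% of those of tested genes. For the CCAAT box the share was 20 of 42 (47.6%) beside 34.6% and 34.7%, and for the RFX half-site 12 of 42 (28.6%) beside 12.2% and 12.6%. No motif overlapped another kind in the stretches shown. Of the 12 genes with a window that rose after phosphoramidon, 5 held a CHR, 7 a CCAAT box, 6 an E2F core and 3 an RFX half-site; of the other 21 genes, 9, 11, 5 and 8 did. CEP57 and CEP152, which did not pass the test, each had a window with a CHR, a CCAAT box and an E2F core. No test was run on these counts.

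After 24 h of phosphoramidon 15 of the 39 CEP genes rose and 1 fell, and 23 did not pass the test (limma on log2 FPKM, Benjamini-Hochberg adjusted p below 0.05 over all 16168 tested genes). Over all tested genes 14.1% were higher and 19.4% lower by the same rule. The fold change was positive in 35 of the 39, beside 48.8% of all tested genes, with a median of 0.24 on the log2 scale beside -0.01 for all tested genes. In the FPKM as deposited, every treated library lay above every untreated one for 27 CEP genes and below for 2, CEP250 and CEP41, while 31.3% of all tested genes were higher in this way and 18.4% lower. After scaling the libraries to a common base, as in the test, the counts were 23 and 2, beside 21.7% and 26.1%. The 7 genes that changed by at least 1.5-fold on the scale of the test, CEP128, CEP57L1, CEP85, CEP19, CEP295, CEP112 and CEP70, were all higher. Over all tested genes 4.03% were higher and 5.35% lower by that much. In RNA from whole cultures, fewer cells of a kind and less RNA per cell cannot be told apart. Without the scaling 23 CEP genes were called higher and 1 lower, and 22.6% and 13.4% of all tested genes. Unless said otherwise, log2 fold changes are from the scaled values. Printed FPKM, means and SDs are as deposited, so fold changes are not the ratios of the printed means.

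**Figure D1:**
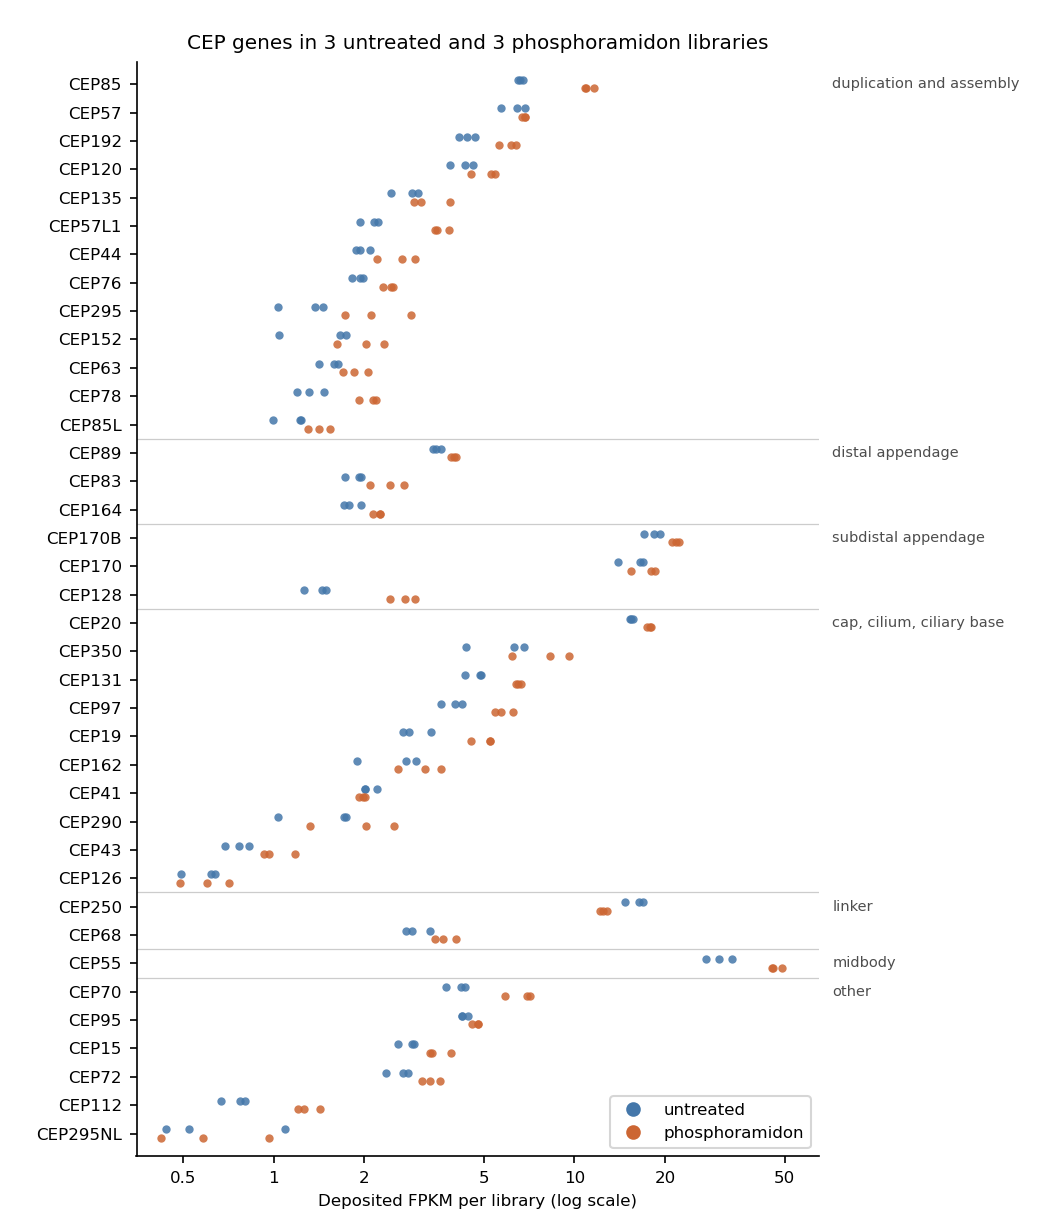
Deposited FPKM (log axis) of 38 of the 39 CEP genes in the 3 untreated libraries (blue points) and the 3 phosphoramidon libraries (orange points), grouped by role and ordered by level. The treated points lie to the right of all untreated points for most genes and to the left for CEP250 and CEP41, and CEP55 is the most abundant.

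**Figure D2:**
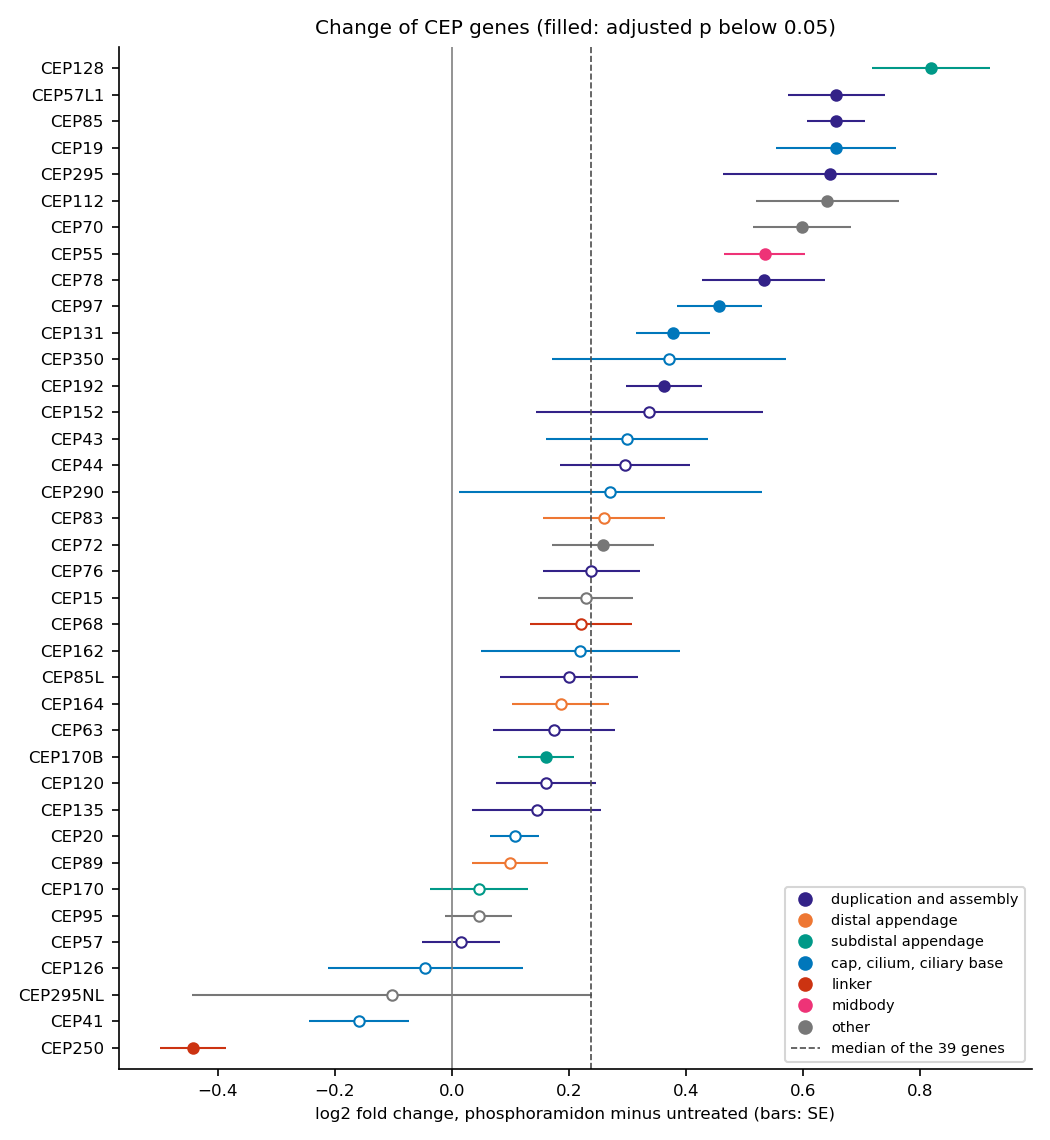
Log2 fold change of 38 of the 39 CEP genes, phosphoramidon minus untreated, as a point coloured by role with its SE as a bar; filled points passed the adjusted p of 0.05 in limma, and the dashed line is the median of the 39 genes, 0.24. The values run from 0.82 for CEP128 to -0.44 for CEP250, the single filled point below 0.

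Among the 13 genes of centriole duplication and assembly, 5 rose (38.5%, beside 14.1% of all tested genes) and none fell. All 13 had a positive fold change, with a median of 0.30. In 9 of them the treated libraries lay above all untreated libraries in deposited FPKM (31.3% of all tested genes), and in 7 after the scaling used in the test (21.7%).

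CEP85 binds STIL and helps it to activate PLK4 at the new centriole. The gene is on chromosome 1 (26234200 to 26278808), and its promoter with 2 CCAAT boxes and an E2F core is given above. Its level was 6.58, 6.74 and 6.49 FPKM in untreated and 11.6, 11.0 and 10.9 FPKM in treated libraries, in the same order. The groups were far apart and the replicates close together. The mean went from 6.60 ± 0.126 to 11.1 ± 0.395 FPKM (SD, n = 3 each), a log2 fold change of 0.66 ± 0.05 (SE) with a limma adjusted p of 4.4e-05, the lowest of the 39 genes.

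CEP57L1 is a paralog of CEP57, which holds the centrioles within the surrounding matrix with CEP63 and CEP152. It read 1.93, 2.15 and 2.23 FPKM in untreated and 3.44, 3.82 and 3.50 FPKM in treated libraries. All treated libraries stood above all untreated ones. The log2 fold change was 0.66 ± 0.08 (SE; limma adjusted p = 5.3e-04), while CEP57 itself, more abundant at 5.72 to 6.84 FPKM in untreated and 6.71 to 6.84 FPKM in treated libraries, had a fold change of 0.02 (adjusted p = 0.88).

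The scaffold protein CEP192 brings PLK4 to the centriole together with CEP152 and builds up the matrix in mitosis. Its gene, on chromosome 18 (12991362 to 13125052), read 4.13, 4.68 and 4.40 FPKM in untreated and 5.63, 6.14 and 6.39 FPKM in treated libraries. There was no overlap, and the log2 fold change was 0.36 ± 0.07 (SE; limma adjusted p = 0.0032). CEP152, the other scaffold, read 1.04, 1.74 and 1.66 FPKM in untreated and 1.62, 2.03 and 2.33 FPKM in treated libraries. Here replicate 1 was the lowest of each group and the groups overlapped, with a log2 fold change of 0.34 ± 0.19 (adjusted p = 0.22) that was 0.13 without untreated replicate 1.

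CEP78, a protein of the centriole wall whose loss causes a cone-rod dystrophy with hearing loss, read 1.19, 1.32 and 1.47 FPKM in untreated and 2.14, 1.92 and 2.19 FPKM in treated libraries. The groups did not overlap, and the log2 fold change was 0.53 ± 0.10 (SE; limma adjusted p = 0.0051).

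CEP295 is needed for a new centriole to become a centrosome of its own, and its promoter holds the CHR, CCAAT box and E2F core shown above. It lay between 1.04 and 1.46 FPKM in untreated and between 1.72 and 2.86 FPKM in treated libraries, a log2 fold change of 0.65 ± 0.18 (SE; limma adjusted p = 0.027). The treated libraries were wide apart, and the call was kept in 3 of 6 fits that left out a library: the adjusted p was 0.079 without untreated replicate 1, 0.067 without treated replicate 2 and 0.069 without treated replicate 3, with fold changes from 0.47 to 0.81 over the 6 such fits. With all 6 libraries it was lost with voom on recovered fragments (adjusted p = 0.078), with a constant variance prior (0.056) and without a filter on low genes (0.11). CEP295 shares 1071 exon bases (11.3%) with AP001273.1 (mean 0.149 FPKM) and 250 (2.63%) with the more abundant TAF1D (6.81 FPKM), both on the opposite strand, and the use of strand in counting is not given in the sources used here.

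Beside CEP57 and CEP152, 6 more genes of the group did not pass the test. CEP76, which restrains a second round of duplication, had a log2 fold change of 0.24 (limma adjusted p = 0.055), and CEP44 one of 0.30 (adjusted p = 0.071). CEP44 passed without treated replicate 1, with a log2 fold change of 0.40 and an adjusted p of 0.018. Values for CEP120 (0.16), which elongates the centriole, CEP63 (0.18), CEP85L (0.20) and CEP135 (0.15), a part of the cartwheel at the base of the barrel, had adjusted p from 0.18 to 0.35. Without treated replicate 3 the log2 fold change of CEP135 was 0.039 (limma adjusted p = 0.81).

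None of the 3 distal appendage genes passed the test, although the treated libraries of each lay above all its untreated libraries in deposited FPKM (31.3% of all tested genes). After scaling this held for CEP83 and CEP164 (21.7% of all tested genes), while the groups of CEP89 overlapped. The median log2 fold change was 0.19. Without scaling all 3 were called higher (22.6% of all tested genes), with limma adjusted p of 0.039 for CEP83, 0.040 for CEP164 and 0.044 for CEP89. With scaling, voom on recovered fragments called CEP83 (adjusted p = 0.018) and CEP164 (0.028) higher but not CEP89 (0.20). It called 17.0% of all tested genes higher.

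CEP83 sits at the root of the distal appendages and is needed to add the other parts. The gene, on chromosome 12 (94306449 to 94459988), read 1.73, 1.92 and 1.96 FPKM in untreated and 2.09, 2.43 and 2.71 FPKM in treated libraries. Replicate 1 was the lowest of both groups, and the log2 fold change was 0.26 ± 0.10 (SE; limma adjusted p = 0.088). Without treated replicate 1 it was 0.35 and passed, at an adjusted p of 0.033.

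CEP164 recruits the kinase TTBK2, which starts the growth of the cilium. It is on chromosome 11 (117314557 to 117413268) and read 1.72, 1.96 and 1.78 FPKM in untreated and 2.26, 2.13 and 2.25 FPKM in treated libraries. The gap between the groups was smaller than the spread within the untreated group, and the log2 fold change was 0.19 ± 0.08 (SE; limma adjusted p = 0.12).

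For CEP89, a distal appendage protein on chromosome 19 (32875925 to 32971991), the values were 3.61, 3.45 and 3.37 FPKM in untreated and 3.99, 4.05 and 3.88 FPKM in treated libraries. It had tight groups and the smallest difference of the 3, a log2 fold change of 0.10 ± 0.06 (SE; limma adjusted p = 0.28).

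Of the 3 subdistal appendage genes, which anchor microtubules on the older centriole, 2 rose, beside 14.1% of all tested genes. CEP128, on chromosome 14 (80476983 to 80959517), had the highest fold change of the 39 genes. It read 1.27, 1.5 and 1.44 FPKM in untreated and 2.44, 2.94 and 2.74 FPKM in treated libraries. The lowest treated library stood well above the highest untreated one. The mean went from 1.40 ± 0.121 to 2.71 ± 0.252 FPKM (SD, n = 3 each), a log2 fold change of 0.82 ± 0.10 (SE; limma adjusted p = 4.9e-04).

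CEP170B, a paralog of the microtubule-binding CEP170, also lies on chromosome 14 (104865280 to 104896770). It read 18.4, 19.2 and 17.1 FPKM in untreated and 21.7, 21.1 and 22.2 FPKM in treated libraries. The groups did not overlap, but the difference was small, a log2 fold change of 0.16 ± 0.05 (SE; limma adjusted p = 0.029). The adjusted p was 0.077 without untreated replicate 3 and 0.073, 0.059 and 0.076 without treated replicates 1, 2 and 3. CEP170 itself read 13.9 to 16.9 FPKM in untreated and 15.5 to 18.6 FPKM in treated libraries, groups that overlapped, with a log2 fold change of 0.05 (adjusted p = 0.71).

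Of the 11 genes of the centriole cap, the growing cilium and the ciliary base, 4 rose (36.4%, beside 14.1% of all tested genes) and none fell. Their median log2 fold change was 0.27. CEP19, on chromosome 3 (196706277 to 196712293), brings the GTPase RABL2 to the ciliary base, where it works with CEP350 and CEP43. It read 2.82, 2.69 and 3.34 FPKM in untreated and 5.23, 5.23 and 4.52 FPKM in treated libraries. All treated libraries were higher, with a log2 fold change of 0.66 ± 0.10 (SE; limma adjusted p = 0.0016).

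CEP97 caps the end of the centriole with CP110 and keeps a cilium from growing. The gene, on chromosome 3 (101723925 to 101770562), read 3.61, 3.99 and 4.22 FPKM in untreated and 5.44, 5.71 and 6.23 FPKM in treated libraries. Both groups were narrow beside the gap between them, and the log2 fold change was 0.46 ± 0.07 (SE; limma adjusted p = 0.0018). CCP110, the gene of its partner, went from 2.11 ± 0.298 to 3.14 ± 0.314 FPKM (SD, n = 3 each), a log2 fold change of 0.47 (limma adjusted p = 0.014). That call was lost without treated replicate 2, and the fold change ran from 0.37 to 0.56 over fits that left out 1 library.

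CEP131, a protein of the centriolar satellites that carry material to the ciliary base, lies on chromosome 17 (81189593 to 81222999). It read 4.87, 4.86 and 4.33 FPKM in untreated and 6.64, 6.39 and 6.48 FPKM in treated libraries. The treated libraries were close together and above all untreated ones, with a log2 fold change of 0.38 ± 0.06 (SE; limma adjusted p = 0.0022).

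The 7 genes of this group described next did not pass the test. CEP290, a large protein of the transition zone mutated in several ciliary diseases, read 1.03 to 1.74 FPKM in untreated and 1.32 to 2.52 FPKM in treated libraries, a log2 fold change of 0.27 ± 0.26 (SE; limma adjusted p = 0.46). CEP350 ran from 4.38 to 6.78 FPKM in untreated and from 6.19 to 9.56 FPKM in treated libraries, with a fold change of 0.37 ± 0.20 (adjusted p = 0.20). In both genes replicate 1 was the lowest library of each group. Without untreated replicate 1 the fold change was 0.051 for CEP290 and 0.19 for CEP350, and without treated replicate 1 it was 0.51 and 0.54. CEP20 had narrow groups that did not overlap, 15.3 to 15.6 FPKM and 17.4 to 18.0 FPKM, with a fold change of 0.11 (adjusted p = 0.080). CEP43, the partner of CEP350 and CEP19, had a log2 fold change of 0.30 (limma adjusted p = 0.13) and CEP162, which helps to set up the transition zone, one of 0.22 (adjusted p = 0.36). The log2 fold change of CEP162 was 0.040 without untreated replicate 1 (limma adjusted p = 0.85) and 0.34 without treated replicate 1 (adjusted p = 0.19). CEP41, which brings in the enzyme that adds glutamate to the tubulin of cilia, and CEP126 had values of -0.16 (adjusted p = 0.19) and -0.04 (adjusted p = 0.86).

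CEP250 encodes C-Nap1, which anchors the linker that ties the centrosomes together until mitosis, and was the only CEP gene that fell. The gene is on chromosome 20 (35455164 to 35519280). It read 16.4, 16.8 and 14.7 FPKM in untreated and 12.8, 12.1 and 12.4 FPKM in treated libraries. All treated libraries lay below all untreated ones. The mean went from 16.0 ± 1.14 to 12.5 ± 0.322 FPKM as deposited (SD, n = 3 each). On the scaled values the log2 fold change was -0.44 ± 0.06 (SE, limma adjusted p = 5.7e-04), and with values as deposited -0.35. CEP250 was called lower under each of 17 other settings of the analysis.

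The other linker gene among the CEP genes, CEP68, had a log2 fold change of 0.22 (limma adjusted p = 0.083), and it shares 757 exon bases with RAB1A on the opposite strand. NEK2, the kinase that phosphorylates C-Nap1 to release the linker, went from 9.91 ± 0.169 to 20.3 ± 1.07 FPKM (SD, n = 3 each), a log2 fold change of 0.94 (limma adjusted p = 8.3e-06). Of the 7 tested linker genes other than CEP genes, 4 rose (57.1%, beside 14.1% of all tested genes) and none fell. Those that rose were NEK2, LRRC45 and the pair STK3 (0.45) and SAV1 (0.27), which act upstream of NEK2. SAV1 was lost without untreated replicate 1 or treated replicate 2, at fold changes of 0.21 to 0.33 over the 6 fits that left out a library.

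CEP55 leaves the centrosome in mitosis and brings the membrane-cutting ESCRT machinery to the midbody, where the daughter cells part. It was the most abundant of the 39 genes, above 93.7% of tested protein-coding genes in mean FPKM. Its promoter, with a CHR and a CCAAT box, is shown above, and its gene lies on chromosome 10 (93496632 to 93529092). It read 27.4, 30.3 and 33.4 FPKM in untreated and 45.6, 49.1 and 45.5 FPKM in treated libraries. The highest untreated library was well below the lowest treated one. The mean went from 30.4 ± 2.98 to 46.7 ± 2.04 FPKM (SD, n = 3 each), a log2 fold change of 0.53 ± 0.07 (SE; limma adjusted p = 7.1e-04).

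Of the 6 genes with a role in microtubule organisation or little described, 3 rose, beside 14.1% of all tested genes. CEP70, which binds gamma-tubulin, went from 4.08 ± 0.299 to 6.64 ± 0.683 FPKM (SD, n = 3 each), a log2 fold change of 0.60 (limma adjusted p = 9.0e-04). CEP112, a coiled-coil protein whose promoter holds the RFX half-site above, was among the least abundant at 0.747 ± 0.0696 and 1.30 ± 0.113 FPKM, a fold change of 0.64 (adjusted p = 0.0044). CEP72, a satellite protein, rose by 0.26 on the log2 scale with the highest adjusted p of the called CEP genes (0.048). It did not pass without untreated replicate 2 or 3 (adjusted p 0.095 and 0.14) or treated replicate 2 or 3 (0.12 and 0.14), and CEP72 shares 404 exon bases (11.0%) with TPPP on the opposite strand. CEP15 and CEP95 had log2 fold changes of 0.23 (adjusted p = 0.060) and 0.05 (adjusted p = 0.58). CEP295NL had the widest spread of the 6 on the log2 scale, at 0.438 to 1.09 FPKM in untreated and 0.422 to 0.964 FPKM in treated libraries, and shares 198 exon bases with the far more abundant TIMP2 on the same strand.

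The CEP genes were long and poor in GC beside the genes tested. Their median exon length was 7898 bases against 4598.5, and their median GC content 41.3% against 47.9%. Of the 39, 21 were in the GC-poorest of 4 equal groups of tested genes and 23 in the longest of 4 such groups. Among the 21 of lowest GC, untreated replicate 1 was the lowest library of its group in 19 and treated replicate 1 in 17. Among the other 18 these counts were 5 and 6. Over all 1424 tested genes in both the GC-poorest and the longest of such groups, CEP genes not left out, they were 916 and 920. The median deviation of replicate 1 from its group was -0.12 and -0.15 (log2) in the 21 low-GC CEP genes. It was 0.01 and 0.01 in the other 18, and -0.057 and -0.059 in the 1424 genes. The 1424 genes thus went the same way by less, though they were picked by length as well as GC. The gap was wide in CEP290, where replicate 1 stood below the mean of replicates 2 and 3 by a log2 difference of -0.67 in untreated and -0.72 in treated cells, and in CEP350 (-0.54 and -0.50), CEP152 (-0.63 and -0.39) and CEP162 (-0.54 and -0.36). Of the 21 low-GC CEP genes 7 rose (33.3%), and of the other 18, 8 rose (44.4%) and 1 fell. Over all tested genes 14.1% were higher and 19.4% lower. Of the 1424 GC-poor and long genes 18.7% were higher, and of the GC-richest of the 4 groups 9.71%. With both libraries numbered 1 left out, 15 CEP genes were called higher and 1 lower, beside 9.98% and 14.5% of all tested genes. They were not the same 15. CEP350 (log2 fold change 0.36, limma adjusted p = 0.016) and CEP44 (0.41, adjusted p = 0.039) passed, and CEP170B (adjusted p = 0.083) was among those that no longer did. With a trend of GC and length removed from each library, 15 CEP genes were called higher and 1 lower, beside 16.3% and 18.1% of all tested genes.

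**Figure D3:**
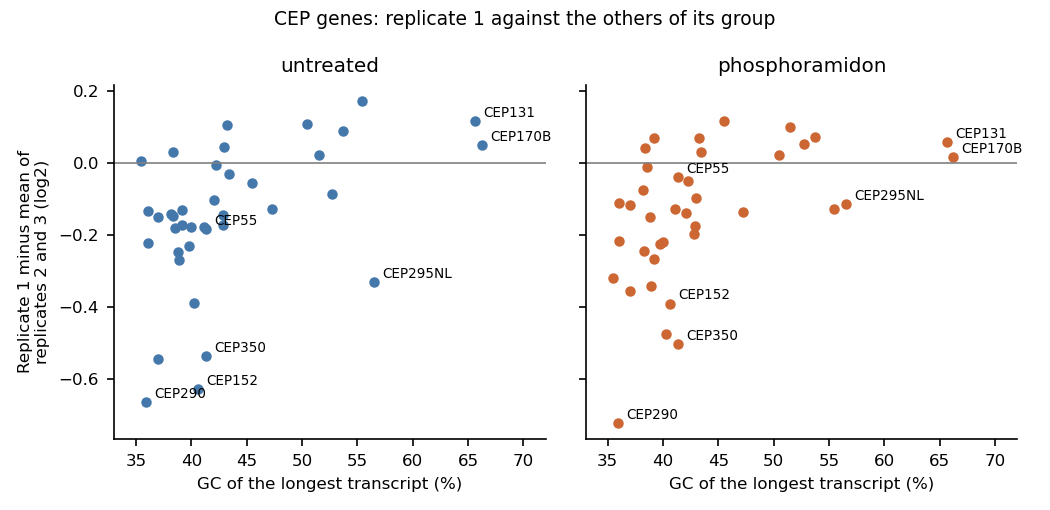
Log2 difference of replicate 1 from the mean of replicates 2 and 3 for 38 of the 39 CEP genes, in untreated (left) and phosphoramidon (right) libraries, against the GC percent of the gene's longest transcript. Points below 0 gather at low GC in both groups, with CEP290 lowest at -0.67 and -0.72, while CEP131 and CEP170B at the GC-rich end sit slightly above 0.

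The genes that work with the CEP proteins were taken from lists of known roles. Some lists share genes, such as AURKA, CDK5RAP2 and LRRC45, so their counts are not separate. Of 26 tested partners in centriole duplication, 10 rose (38.5%) and none fell, with a median log2 fold change of 0.28. Over all tested genes 14.1% were higher and 19.4% lower. STIL, the target and activator of PLK4 that CEP85 binds, went from 8.41 ± 0.420 to 13.7 ± 0.692 FPKM (SD, n = 3 each), a fold change of 0.61 (limma adjusted p = 9.6e-05). PLK4 went from 7.68 ± 0.696 to 11.7 ± 0.855 FPKM (SD, n = 3 each), a fold change of 0.51 (limma adjusted p = 0.0011). The fold change of SASS6, the core of the cartwheel, was 0.36 and did not pass (adjusted p = 0.090), though it was called without treated replicate 1 (0.21 to 0.48 over the 6 fits that left out a library). CENPJ, which adds tubulin to the growing barrel, rose by 0.47 (adjusted p = 0.045), a call lost without untreated replicate 1 or 2 or treated replicate 2 or 3, with fold changes of 0.32 to 0.59 over the 6 fits.

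In the pericentriolar matrix that CEP192 helps to build, 11 of 19 tested genes rose (57.9%) and 2 fell (10.5%), with a median of 0.29. Over all tested genes 14.1% were higher and 19.4% lower. The scaffolds PCNT (0.29), CDK5RAP2 (0.21) and NEDD1 (0.37) rose with the kinase AURKA (0.46), its partner TACC3 (0.55) and the microtubule polymerase CKAP5 (0.47). The 2 that fell, TUBGCP2 (-0.19) and MZT2A (-0.62), are parts of gamma-tubulin complexes; TUBGCP2 passed in 1 of 6 fits that left out a library (without untreated replicate 3; -0.23 to -0.12 over the 6). Beside the 3 distal appendage CEP genes, 3 of 7 other distal appendage genes rose (42.9%), SCLT1 (0.44), LRRC45 (0.33) and TTBK2 (0.33). NCS1 fell (-0.25), which is 14.3% of the list, and FBF1 did not pass (0.10, limma adjusted p = 0.71). LRRC45 did not pass without untreated replicate 2 or 3 or treated replicate 2 or 3 (0.27 to 0.39 over the 6 fits). Beside CEP128 and CEP170B, 3 of 8 other subdistal genes rose, ODF2 (0.31), CNTRL (0.56) and NIN (0.37), and 2 fell, MAPRE1 (-0.11) and DCTN1 (-0.19). MAPRE1 did not pass in any fit that left out a library (-0.12 to -0.10). NIN (0.28 to 0.47) did not pass without untreated replicate 1 or 3 or treated replicate 2 or 3, nor DCTN1 (-0.24 to -0.15) without untreated replicate 1 or 2 or treated replicate 2 or 3.

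In the transition zone of the cilium, where CEP290 acts, 3 of 22 tested genes rose, TCTN3 (0.37), NPHP4 (0.48) and TCTN2 (0.28), and 2 fell, B9D1 (-0.46) and CC2D2A (-0.45), with a median of 0.06. These are 13.6% and 9.09%, beside 14.1% and 19.4% of all tested genes, so the share that rose was about that of all genes. B9D1 did not pass without replicate 2 of either group (-0.51 to -0.38 over the 6 fits). Of 32 genes of intraflagellar transport 9 rose, KIF3A (0.48), TTC21B (0.64) and IFT122 (0.49) among them, and DYNC2I2 fell (-0.39). These are 28.1% and 3.1%. Of 18 genes of the BBSome and ciliary GTPases 3 rose, PDE6D (0.59), ARL6 (0.65) and BBS2 (0.26), and none fell, with a median of 0.17; the 16.7% that rose is near the 14.1% of all tested genes. For removal of the cap and docking of vesicles the counts were 9 higher (42.9%) and 4 lower (19.0%) of 21, with a median of -0.04. The share lower was about the 19.4% of all tested genes. Those lower were EHD1 (-0.38), HDAC6 (-0.19), NEDD9 (-0.64) and DZIP1L (-0.41). HDAC6 passed in 1 of 6 fits, the one without untreated replicate 2 (-0.21 to -0.17). Of 15 centriolar satellite genes 4 rose (26.7%, beside 14.1% of all tested genes), CEP131, TBC1D31 (0.51), CCDC18 (0.45) and SSX2IP (0.34), and none fell. SSX2IP passed in 2 of 6 fits, those without untreated replicate 3 or treated replicate 1 (0.28 to 0.41), and PCM1, the scaffold of the satellites, had a fold change of 0.27 that did not pass (limma adjusted p = 0.18). Among 11 regulators of ciliary and multiciliated cell genes GMNN (0.27) and MYB (0.74) rose (18.2%) and RFX5 fell (-0.38; 9.09%), again near or below the shares of all tested genes. MYB passed in 2 of 6 fits, those without replicate 3 of either group (0.59 to 0.91).

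The list of mitotic genes, read beside CEP55, had 24 of 30 higher (80.0%) and none lower, with a median of 0.55, and BUB1 (0.92), KIF20A (0.71) and PTTG1 (0.62) had the lowest p-values. Over all tested genes 14.1% were higher and 19.4% lower. Of 16 DREAM, B-MYB, FOXM1 and E2F genes, whose complexes bind the CHR and E2F motifs above, 9 rose, among them E2F7 (0.75), FOXM1 (0.63) and LIN54 (0.50), and 2 fell, RBBP4 (-0.24) and E2F4 (-0.23). The part of cell cycle genes in the changes of the CEP genes was not tested. Summed over the 7 markers of multiciliated cells with a value, the level was 2.19 to 2.64 FPKM in untreated and 2.70 to 3.09 FPKM in treated cells, and none of the 5 that could be tested was called. Fibroblast markers summed to 10.3 to 11.7 FPKM in untreated and 4.19 to 4.68 FPKM in treated cells, with COL1A2, COL3A1 and PDGFRA below 0.1 FPKM throughout. Epithelial markers (EPCAM, CDH1, KRT7, KRT8 and KRT18) summed to 140.7 to 152.2 FPKM in untreated and 110.6 to 115.0 FPKM in treated cells; KRT7, KRT8 and KRT18 were called lower, with a median log2 fold change of -0.54 over all 5. The proximal tubule markers summed to 89.0 to 94.2 and 99.9 to 104.3 FPKM. By limma, though, 2 of the 6 that were tested were called lower and none higher. Fold changes of these 6 had their median at -0.05 (log2). The part of these marker lists in the results was not tested.

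**Figure D4:**
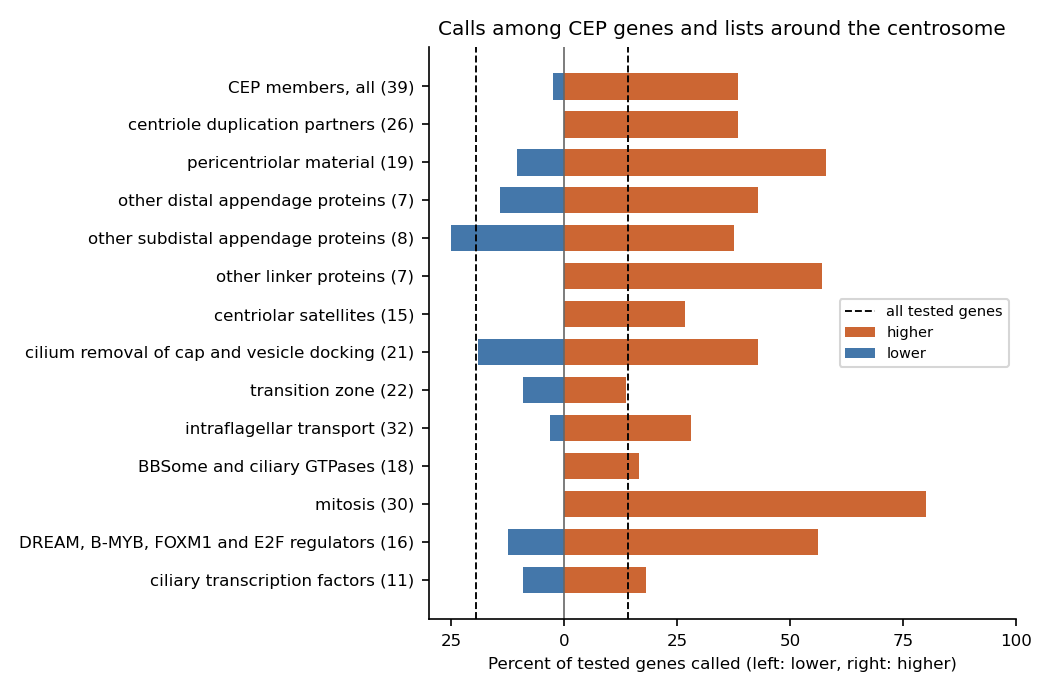
Percent of tested genes called higher (orange, right) and lower (blue, left) by limma among the 39 CEP genes and in lists of genes around the centrosome and cilium, with the number tested in brackets; dashed lines are all tested genes, 14.1% higher and 19.4% lower. The CEP genes have 15 of 39 higher and 1 lower, the mitotic list 24 of 30 higher, and the transition zone 3 of 22 higher.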

How the data were processed

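The authors deposited FPKM per Ensembl gene ID for each library. Per the submitters' processing notes, which give neither roles nor order, the build was GRCh38 and the tools included the aligner HISAT2 2.1.0, the counter featureCounts 1.6.0, the trimmer Trimmomatic 0.38 and DESeq2 1.22.1. Annotation and strand use were not given in the sources used here. FPKM times the merged exon length of GENCODE 29 fell on whole multiples of 1 step per library in 79.2% of genes above 0 (tolerance 0.05), and in 99.9% at some length. Of the 39 CEP genes 18 were whole at the GENCODE length, and fragments of the others rest on a searched length. The step gave fragments and totals, so 1 fragment on 1 kb was worth 0.0401 to 0.0535 FPKM. Libraries were scaled by TMM factors (0.956 to 1.05; trims 30% and 5%) computed from these fragments. Genes with at least 10 fragments in at least 3 libraries were tested with limma 3.58.1 (R 4.3.3) on log2(FPKM/factor + 0.1), two-sided, group as the only term, with a trended robust prior. Fold changes are on that scale, which understates low genes; means and SDs are of deposited FPKM. The procedure was tested on simulated data.

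Groups came from the treatment label. The members, roles and lists were chosen with earlier results of these data known. Deposited values in every library are printed for the 4 called genes of lowest p in each CEP role other than the mixed one, and for all distal appendage genes; from other lists, the 3 called genes of lowest p and a set of well-known partners are named. Some results are not reported here, although counts over groups include them. Other genes, such as those that fell in a list, were named after their values were seen. Alternatives were other scalings, pseudocounts, filters, variance models, a GC and length correction, a replicate block and leaving out libraries. Promoter sequences and starts are from RefSeq (GRCh38.p14); gene coordinates are from GENCODE 29 (GRCh38).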

Additional observations from a re-analysis of the deposited data

How the results depend on the processing

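Of the 16 called CEP genes, 12 passed under each of 17 other settings; CEP170B, CEP295 and CEP72 were among those that did not. With values as deposited 23 CEP genes were called higher in place of 15, and over all genes 3648 were higher and 2169 lower, against 2280 and 3139 with scaling. Without a filter 3545 genes were called in place of 5419. Leaving out each library in turn gave 4058 to 4784 called genes, both directions together. The CEP genes had 11 to 15 higher, 1 lower, and a median from 0.19 to 0.30. With voom on recovered fragments 21 CEP genes were higher and 1 lower, beside 17.0% and 21.8% of all tested genes.

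Of the genes that were not called, 4 changed sign. With values as deposited CEP126 had 0.031. CEP57 had -0.031 with the GC and length trend removed, with or without the block, and -0.038 without both libraries numbered 1, an alternative chosen after seeing the data. Leaving out each library in turn gave -0.15 to 0.070 for CEP126, -0.043 to 0.076 for CEP57, -0.029 to 0.12 for CEP170 and -0.37 to 0.23 for CEP295NL. The cause was not tested.

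The labels do not say whether libraries of the same number pair. Same-numbered deviations correlated by 0.110, -0.0218 and -0.0122 and the others by -0.102 to 0.117, and not every library correlated best with its own number. These values cannot settle the pairing, as each deviation is from a mean of only 3 libraries. A replicate block gave 5421 called genes, both directions together, and 17 CEP genes higher and 1 lower. With it CEP350 (adjusted p 0.0059), CEP68 (0.041) and CEP15 (0.047) passed and CEP72 (0.081) did not.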
